A study of Mus musculus with 10 samples.

Results

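The apolipoprotein E cluster is a row of 7 genes on chromosome 7 of the mouse that are all transcribed from the minus strand: Apoe, Apoc1, Apoc2, Apoc4, Tomm40, Clptm1 and Clasrp. The 7 genes, of 20696 autosomal protein-coding genes annotated in mm10, were followed in 2 kinds of chromatin data from microglia. A gene was called marked where a peak of H3K4me3, a histone modification of active promoters, lay within 1 kb of one of its transcription start sites (TSSs) in both replicates. An interaction was assigned to a gene where one of the 2 bins it joined, each 5 kb long, held a TSS of the gene or overlapped the gene body. All libraries came from microglia of C57/Bl6 wild-type mice, named Sall1 enhancer wild type in the series. The cells were whole cells sorted from brain as CD45+ CD11b+ CX3CR1+, with the study's gate set at low CD45. H3K4me3 ChIP–seq was done in 2 replicates with input libraries, and H3K4me3 PLAC-seq, a proximity ligation assay that enriches contacts made by H3K4me3 chromatin, in 2 libraries that the authors combined. By the study's methods such mice were young adult males; the labels give neither an age nor the number of mice pooled per library, and do not say that the replicates came from separate animals.

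ApoE is the main lipid carrier of the brain, made by astrocytes and also by microglia, and hands cholesterol and phospholipids to cells through receptors of the LDL receptor family. The 3 Apoc genes beside it encode small exchangeable apolipoproteins of plasma lipoproteins, made mainly in the liver, of which ApoC-II activates lipoprotein lipase. The other genes of the row have unrelated roles: Tomm40 encodes the protein import channel of the outer mitochondrial membrane, Clptm1 a membrane protein that holds back GABA-A receptors in the cell, and Clasrp a regulator of splicing. The study used the region around Apoe as an example of regulation in microglia, which makes its promoters and their contacts in unperturbed cells of interest.

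The sequences just before 4 of the starts show how far the promoters of this row differ in their content of CG dinucleotides (CpG), which is a common property of promoters with strong H3K4me3. Each run is the 250 bases before a RefSeq start, read 5′ to 3′ on the minus strand of chromosome 7 in GRCm38.p6, with every CG in capitals. Printed windows hold at most 30 bases of UTR or exon of coding transcripts. For Apoe the window of its second RefSeq start was taken, at chr7:19698622-19698871, because the tallest H3K4me3 peak of Apoe overlaps it. The overlap is 72 bases in replicate 1 and 81 bases in replicate 2. This window lies inside the Apoe gene body, downstream of the first TSS at 19699188. None of the 6 TSSs used to assign peaks lies at this RefSeq start. The other printed windows lie almost wholly before the first TSS of their gene. The windows of the other genes overlap no peak, so the windows were not chosen alike. Of the 3 Apoe starts, the second also has the most CGs, with 12 in 300 bases against 10 and 11. The windows of the other genes lie at chr7:19681461-19681710 for Apoc4, chr7:19715430-19715679 for Tomm40 and chr7:19665031-19665280 for Clptm1.
Apoe: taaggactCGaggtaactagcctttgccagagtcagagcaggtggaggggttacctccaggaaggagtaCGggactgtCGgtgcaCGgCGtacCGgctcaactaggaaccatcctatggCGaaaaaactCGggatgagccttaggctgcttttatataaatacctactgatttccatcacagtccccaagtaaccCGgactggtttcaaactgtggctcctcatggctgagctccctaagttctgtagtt
Apoc4: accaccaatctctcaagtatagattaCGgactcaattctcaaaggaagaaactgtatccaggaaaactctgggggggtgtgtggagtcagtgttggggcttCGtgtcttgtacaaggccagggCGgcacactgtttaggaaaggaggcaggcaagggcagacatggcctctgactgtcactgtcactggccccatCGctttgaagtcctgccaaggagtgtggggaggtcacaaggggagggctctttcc
Tomm40: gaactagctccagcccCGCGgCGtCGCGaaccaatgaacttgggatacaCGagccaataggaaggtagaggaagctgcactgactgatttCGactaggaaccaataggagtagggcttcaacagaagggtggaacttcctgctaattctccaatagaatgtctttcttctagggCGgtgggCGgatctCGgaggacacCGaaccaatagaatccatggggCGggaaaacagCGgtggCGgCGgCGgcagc
Clptm1: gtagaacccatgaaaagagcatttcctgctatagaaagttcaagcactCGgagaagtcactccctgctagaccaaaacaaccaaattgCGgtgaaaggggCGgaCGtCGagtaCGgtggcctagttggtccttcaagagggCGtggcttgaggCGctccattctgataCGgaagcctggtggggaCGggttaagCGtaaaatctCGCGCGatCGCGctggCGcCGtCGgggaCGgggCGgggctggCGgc
The printed windows held 9 CGs at Apoe and 4 at Apoc4, but 16 at Tomm40 and 22 at Clptm1. Among these 4 windows, that of Apoc4, one of the 3 genes of the row without a peak, had the fewest. That of Clptm1, the gene with the tallest peak, had the most. The second start of Clasrp, not printed, held more CGs in 300 bases than Clptm1 (32 against 30), and the heights of these 2 genes did not separate.

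RefSeq promoters, each with 250 bases before and 50 bases after a start, were found for 6 of the 7 genes, and not for Apoc1. CpG observed over expected, the number of CGs relative to what the C and G content of the 300 bases would give, was highest at Clptm1, with 0.94 at Tomm40 and 0.94 and 0.93 at the 2 starts of Clasrp. At Apoe it was 0.40 at the first start and 0.62 and 0.59 at the others, at Apoc2 it was 0.34 and at Apoc4 0.23. The median over the promoters of 15680 protein-coding genes, with a single start taken per gene, was 0.61. Clptm1 thus stood at percentile 97.2 of these promoters. The first start of Apoe stood at percentile 37.0 and its other starts near the middle, at 50.9 and 48.7. GC content differed less, between 51.0% and 68.3% over the 9 windows.

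Short motifs were searched on both strands of the same 300-base windows. The shares over all promoters count a single start per gene, so genes searched here at more than a single start had more chances of a match. The TATA box letters TATAAA were found at the second start of Apoe only, where matches on the 2 strands overlap. The match on the minus strand can be read in the printed sequence, with its first base 96 bases before the start. That start lies inside the gene body, and the first start of Apoe has no match. Whether the match serves as a TATA box was not tested. The same letters are found in 12.9% of the 15680 promoters. CCGGAAG, the letters that factors of the ETS family bind at many CpG-rich promoters, occurred at both starts of Clasrp and in 12.5% of all promoters. GAGGAAG, the core of sites for the myeloid factor PU.1, occurred at Tomm40 and at both starts of Clasrp, and in 13.1% of all promoters. CAGAC, the SMAD box, occurred at the first and last start of Apoe, at Apoc2, at Apoc4 and at the first start of Clasrp. It is found in 48.6% of all promoters, so its presence sets none of these genes apart. A match of letters does not show that a factor binds there.

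H3K4me3 split the row into 2 parts. Clptm1, Clasrp, Tomm40 and Apoe were marked in both replicates, and Apoc1, Apoc2 and Apoc4 were not. This is 4 of 7 genes, against 59.4% of all autosomal protein-coding genes (12289 of 20696), a share close to that of the row. The height of the mark also differed widely among the 4 marked genes, from far above the middle of all marked genes to near the bottom. Heights are given as the tags in the tallest peak near a TSS per 10 M mapped tags; since a library's peaks were all cut to 1 width (184 bp for replicate 1, 188 bp for replicate 2), heights of different genes are on the same scale. Counting intervals (exact Poisson, 95%) cover counting error only. In bulk cells, a low height cannot tell few cells with the mark from a low mark in every cell.

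**Figure D1:**
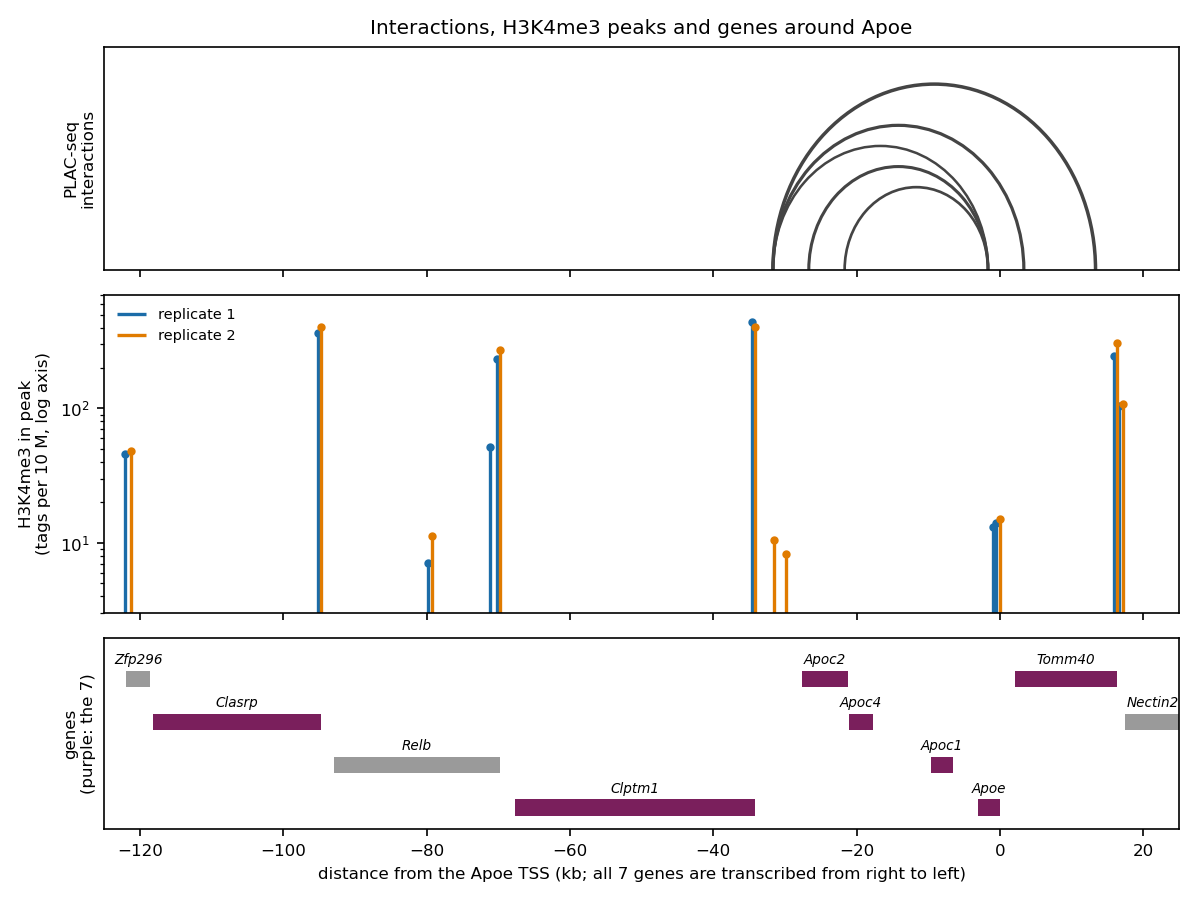
Map of the cluster, with the distance from the Apoe TSS in kb on the x axis. The top panel draws the 5 interactions within the row as arcs between the middles of their bins, thicker with a higher ratio of observed over expected read pairs. The middle panel gives every H3K4me3 peak of replicate 1 (blue) and replicate 2 (orange, drawn slightly to the right) as tags per 10 M on a log axis, and the bottom panel the 7 genes in purple and 3 neighbours in grey. The tall peaks stand at the starts of Clasrp, Relb, Clptm1 and Tomm40, the peaks at Apoe reach 14.9, and no peak lies at Apoc1, Apoc2 or Apoc4.

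Clptm1 (chr7:19631571-19665033, 33.5 kb) had the tallest peak of the row. Its height was 440.2 tags per 10 M in replicate 1 and 401.3 in replicate 2, a mean of 421 ± 27.5 (SD, n = 2). The peak lay in an intron, its center 263 and 224 bp downstream of the only TSS, and was counted from 565 and 538 tags. Replicate 2 over replicate 1 gave 0.912, with a counting interval of 0.809 to 1.03, so the replicates agree within sampling noise. Of all marked genes, 12175 had a lower mean, which places Clptm1 at percentile 99.1.

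Clasrp (chr7:19581035-19604486, 23.5 kb), at the far end of the row, was next. Its peak of 363.8 and 403.5 tags per 10 M, a mean of 384 ± 28.1 (SD, n = 2), covered part of an exon with UTR, 192 and 231 bp downstream of the TSS. The ratio of replicate 2 over replicate 1 was 1.11 (0.986 to 1.27). Clasrp stood at percentile 97.1 of marked genes. The values of Clptm1 and Clasrp did not separate: Clptm1 was 1.21 times Clasrp in replicate 1 and 0.995 times in replicate 2.

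Tomm40 (chr7:19701313-19715438, 14.1 kb), the gene just upstream of Apoe, had 247.7 and 308.8 tags per 10 M, a mean of 278 ± 43.2 (SD, n = 2) at percentile 73.2. Here the replicates differed by more than counting error, with a ratio of 1.25 (1.08 to 1.46). A second peak of 103.6 and 108.2 tags per 10 M lay 580 and 598 bp upstream of the TSS, in an intron of Gm20512, and the tallest peak also overlaps an exon of that gene, so part of the mark may belong to Gm20512. All values of Tomm40 lay below those of Clptm1 (ratio Clptm1 over Tomm40 1.78 and 1.30) and of Clasrp (1.47 and 1.31), and above those of Apoe.

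Apoe (chr7:19696109-19699188, 3.08 kb, with 6 annotated TSSs in a single bin) had by far the lowest mark of the 4. Its tallest peak held 14.0 tags per 10 M in replicate 1 and 14.9 in replicate 2, a mean of 14.4 ± 0.636 (SD, n = 2). These are 18 and 20 tags, with counting intervals of 8.31 to 22.2 and 9.11 to 23.0 tags per 10 M. Scaled input in the same peaks was 0.6 and 0.3 tags, so the peak stood 29.4 and 57.2 times above input by the authors' fold. Its center lay 296 and 303 bp downstream of the first TSS. A further peak of 13.2 tags per 10 M, 740 bp downstream of that TSS, was called in replicate 1 only. The replicate ratio was 1.06 with a counting interval of 0.534 to 2.13, which is wide because so few tags were counted. Only 492 of the 12289 marked genes had a lower mean (percentile 4.0). Clptm1 was 31.4 and 26.9 times as high as Apoe in the 2 replicates, Clasrp 26.0 and 27.1 times, and Tomm40, whose TSS is 16.2 kb away, 17.7 and 20.7 times.

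**Figure D2:**
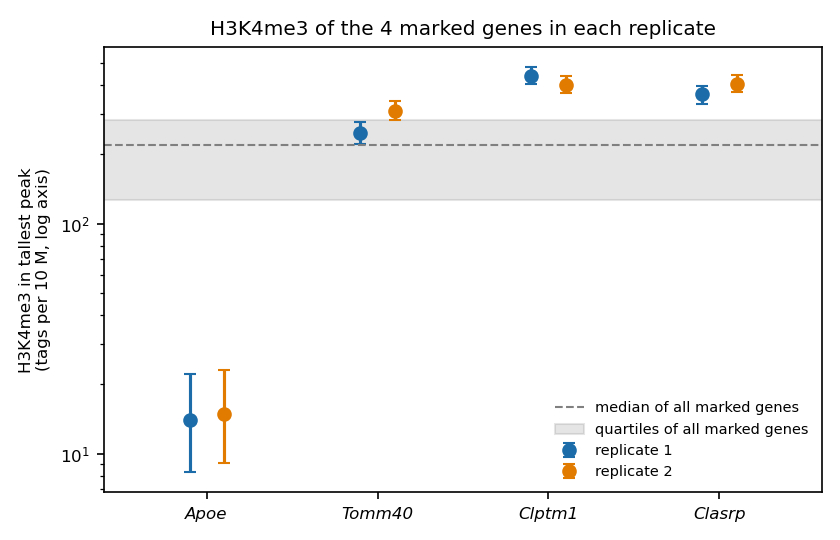
Height of the tallest H3K4me3 peak of the 4 marked genes in tags per 10 M on a log axis, in replicate 1 (blue) and replicate 2 (orange), with exact Poisson 95% intervals of the tag counts. The grey band and the dashed line give the quartiles (126 and 282) and the median (220) of all marked genes. Both values of Apoe lie far below the band, Tomm40 lies at its upper part or above it, and Clptm1 and Clasrp lie above it in both replicates.

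Apoc1 (chr7:19689481-19692660), Apoc2 (chr7:19671579-19677941) and Apoc4 (chr7:19678083-19681479) had no peak within 1 kb of a TSS and none on the gene body in either replicate. The nearest peaks to Apoc1 were those of Apoe, 5.70 and 6.13 kb away. For Apoc4 the nearest was the Clptm1 peak at 16.6 kb in replicate 1 and a low peak of 8.21 tags per 10 M at 12.3 kb in replicate 2. For Apoc2 they were the same peaks, at 9.06 and 4.75 kb. Replicate 2 held 2 such low peaks between Clptm1 and Apoc2, of 10.4 and 8.21 tags per 10 M (14 and 11 tags), at 2.41 and 4.04 kb upstream of the Clptm1 TSS, and replicate 1 held none there.

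The cell type of origin bears on Apoe, since astrocytes make most of the ApoE of the brain. All 7 microglia markers used (P2ry12, Tmem119, Cx3cr1, Csf1r, Aif1, C1qa and Fcrls) were marked, with means between 125 and 301 tags per 10 M and sums of 1562 and 1462 in the 2 replicates. Of 8 astrocyte markers, 4 were marked, a share near the 59.4% of all genes, and their sums were 247 and 263. Most of this came from Slc1a3, a glutamate transporter gene, with 205 and 213. Gja1 (17.9 and 16.4) and Aldh1l1 (17.1 and 23.9) were low but above Apoe in both replicates, and Slc1a2 (7.01 and 9.70) was below it. The other 4 astrocyte markers, Aqp4, Gfap, Aldoc and Sox9, had no peak. Of the border macrophage markers 1 of 6 was marked, Mrc1 with 15.6 and 11.9, and of the monocyte and neutrophil markers 0 of 5. Of the oligodendrocyte markers 3 of 5 were marked, with sums of 333 and 348: Mbp (163 and 210) and Cnp (148 and 123), both far above Apoe, and Olig2 (15.6 and 14.9), whereas Mog and Mag were unmarked. Of the neuron markers 3 of 6 were marked, with means between 9.16 and 16.3 and sums of 48.3 and 44.0, and of the endothelial and mural markers 3 of 5, with sums of 88.8 and 98.5. The part of other cells in the low mark of Apoe was not tested.

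The distance from the middle of all marked genes was also seen against genes that work with ApoE. Of 28 genes for ApoE receptors, cholesterol efflux and lipid handling, 25 were marked (against the 59.4% above), with a median of 222 tags per 10 M, close to the median of 220 over all marked genes. Of these 25, 24 stood above Apoe. This share is near that of all marked genes, since only 492 of the 12289 had a lower mean than Apoe. The highest were Rxrb (366), Rxra (343) and Nr1h2 (340), which encode the nuclear receptors RXR-beta, RXR-alpha and LXR-beta that drive efflux genes together. Trem2, a microglial receptor that binds ApoE, had 170 and 162 tags per 10 M, and Lrp1, an endocytic ApoE receptor, 268 and 289. Vldlr, another ApoE receptor, was the only marked gene of the list with a lower mean than Apoe, and with 14.8 and 11.2 in the 2 replicates its values did not separate from those of Apoe. Cd36 and Lcat had no peak, and Nr1h3, which encodes LXR-alpha, had 10.1 in replicate 1 only. Of 12 other apolipoprotein genes and relatives outside the row, 1 was marked: Apobr (58.4 and 37.3), which encodes a receptor and no apolipoprotein. Apoa1, Apoa2, Apoa4, Apoa5, Apob, Apoc3, Apod, Apof, Apoh, Apom and Clu were unmarked. Among the apolipoprotein genes proper of the row and of this list, Apoe was thus the only one with H3K4me3 in both replicates, at a low height.

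**Figure D3:**
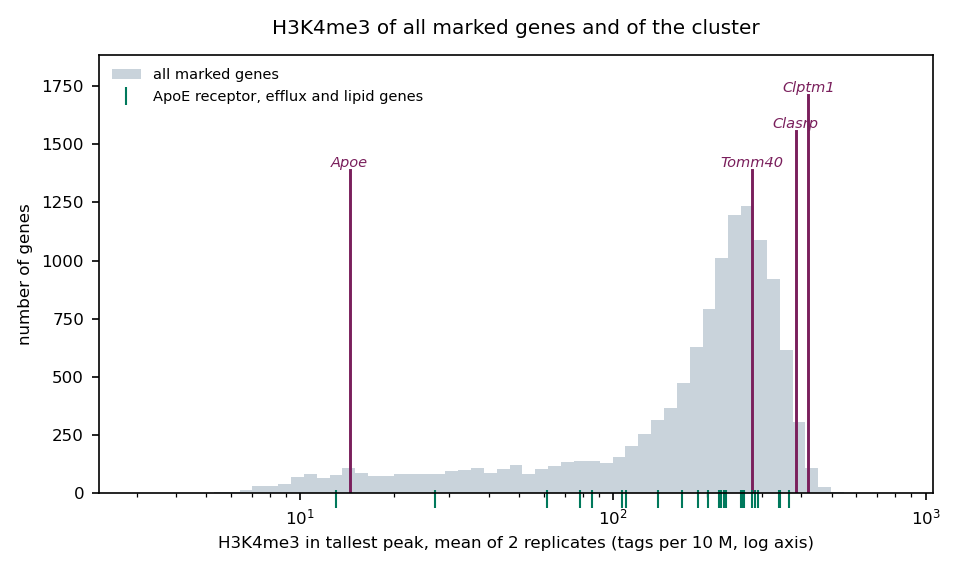
Number of marked genes by the height of their H3K4me3 peak, as the mean of 2 replicates in tags per 10 M on a log axis. Purple lines give the 4 marked genes of the cluster and green ticks the 25 marked genes for ApoE receptors, efflux and lipid handling. Apoe (14.4) stands in the low tail, Tomm40 (278) close to the upper quartile, and Clasrp (384) and Clptm1 (421) at the upper end.

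PLAC-seq placed 9 interactions on the row, and 6 of the 7 genes took part in at least 1, against 33.0% of all autosomal protein-coding genes. The surroundings were alike in this, with an interaction for 16 of the 20 other protein-coding genes within 200 kb. At a bin with a TSS, 4 of 7 genes had an interaction (Apoe, Apoc2, Clptm1 and Clasrp), against 24.7%. The counts by gene were 6 for Clptm1, 3 for Apoe, 2 each for Apoc2 and Tomm40, 1 each for Apoc4 and Clasrp, and 0 for Apoc1. Genes of the row share interactions, so these do not add up to 9 and the 6 genes are not independent. Of the 3 unmarked genes, Apoc2 and Apoc4 had an interaction, against 11.8% of 8407 unmarked genes, and both reached it through the Apoe bin. For each interaction the list gives the read pairs of both libraries together and the number expected by the caller for bins of that distance and visibility. There is no replicate error, and the depth of these libraries is unknown.

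Within the row, 5 of the 9 interactions formed a single cluster over 20 to 45 kb, and all of them started from the Clptm1 TSS bin or ended in the Apoe bin. The strongest joined the Clptm1 TSS bin (chr7:19665001-19670000) to the bin of the Tomm40 gene body beside its TSS bin (chr7:19710001-19715000) over 45 kb. It had 38 read pairs against 11.9 expected, a ratio of 3.20 (exact Poisson 95% interval 2.27 to 4.40) at a false discovery rate of 2.72e-07, and was the summit of the cluster. A second reached the 3′ end of Tomm40 (chr7:19700001-19705000) over 35 kb, with 24 read pairs against 8.41 (ratio 2.85, 1.83 to 4.25; false discovery rate 0.000602). Both thus passed over Apoe, and the bin with the Tomm40 TSS and its tall peaks had no interaction.

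The Apoe bin (chr7:19695001-19700000) had 3 interactions, all of them toward Clptm1 and none toward Tomm40 or beyond. On that side the next bin, with the 3′ end of Tomm40, is 5 kb away. Since the shortest listed span is 10 kb, a contact with that bin could not be listed. With the Clptm1 TSS bin, 30 kb away, the Apoe bin shared 38 read pairs against 18.8 expected. The ratio was 2.02 (1.43 to 2.77) at a false discovery rate of 0.00310. This sits at the edge of what was called, since no interaction in the list had a ratio under 2.00. Only 0.9% of the 3079 interactions over 20 to 45 kb had a lower ratio, although 80.7% had fewer read pairs. With the bin that holds the 2 upstream TSSs of Apoc2 and the 3′ end of Apoc4 (chr7:19675001-19680000), 20 kb away, it shared 41 read pairs against 18.5 (ratio 2.22, 1.59 to 3.01; false discovery rate 0.000430). With the bin of the downstream Apoc2 TSS (chr7:19670001-19675000), 25 kb away, it shared 24 against 8.91 (ratio 2.69, 1.72 to 4.01; false discovery rate 0.00133). The intervals of the 3 ratios overlap, so their order cannot be told. Summed over the 3, the Apoe bin had 103 read pairs against 46.2 expected, a ratio of 2.23 (1.82 to 2.70). Over all 3079 interactions of 20 to 45 kb the median ratio was 2.65, with quartiles of 2.36 and 3.09. That range includes longer spans than the 20 to 30 kb of the Apoe bin. Ratios in the list were higher at long spans, with a median of 4.79 over 175 to 260 kb.

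The resolution of the bins limits which gene these contacts belong to. The Clptm1 TSS lies only 33 bases inside its bin, and the tall Clptm1 peak falls in the bin before it, chr7:19660001-19665000, which had no interaction. The bin with the interactions holds the sequence upstream of Clptm1, with no peak in replicate 1 and the 2 low peaks in replicate 2, although the authors' annotation gives it as a marked bin. The same annotation gives the Tomm40 bin of the strongest interaction as marked, where the deposited peak lists have no peak. Gm44805, an annotated readthrough of Apoc2 and Apoc4, overlaps the same bins and shares both Apoc2 interactions. The TSS of Apoc1 lies in the bin next to that of Apoe, 5 kb apart, and the shortest interaction in the list spans 10 kb, so a contact between these starts could not be listed. A pair of bins that is not in the list was not called, which does not show that the bins lack contact.

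The other 4 interactions left the row on the side of Clasrp, toward Mark4, Klc3 and Ppp1r13l, and had fewer read pairs at higher ratios. The Clptm1 gene body had 17 read pairs against 3.26 with the Klc3 TSS bin over 255 kb (ratio 5.21, 3.03 to 8.34; false discovery rate 7.21e-06), and 15 against 3.47 from a bin 245 kb away (ratio 4.33, 2.42 to 7.13; false discovery rate 0.000230). Its 3′ end had 12 against 2.54 with the body of Ppp1r13l over 260 kb (ratio 4.73, 2.44 to 8.25; false discovery rate 0.000648), where peaks of 39.7 and 32.1 tags per 10 M lay. Clasrp had its only interaction from its marked TSS bin, with the Mark4 gene body over 175 kb, of 13 read pairs against 3.66 (ratio 3.55, 1.89 to 6.07; false discovery rate 0.00403). Over all 4363 interactions of 175 to 260 kb, the median was 13 read pairs and the median ratio 4.79, with quartiles of 4.15 and 5.74. The ratios of the 3 Clptm1 contacts thus lay within the middle range for these spans and that of Clasrp below it. At 175 kb the Clasrp contact has the shortest span of this range, and ratios in the list were higher at long spans. Klc3 encodes a kinesin light chain, Mark4 a microtubule affinity kinase and Ppp1r13l an inhibitor of p53; the Klc3 bin also overlaps the first bases of Ckm, the gene of the creatine kinase of muscle.

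**Figure D4:**
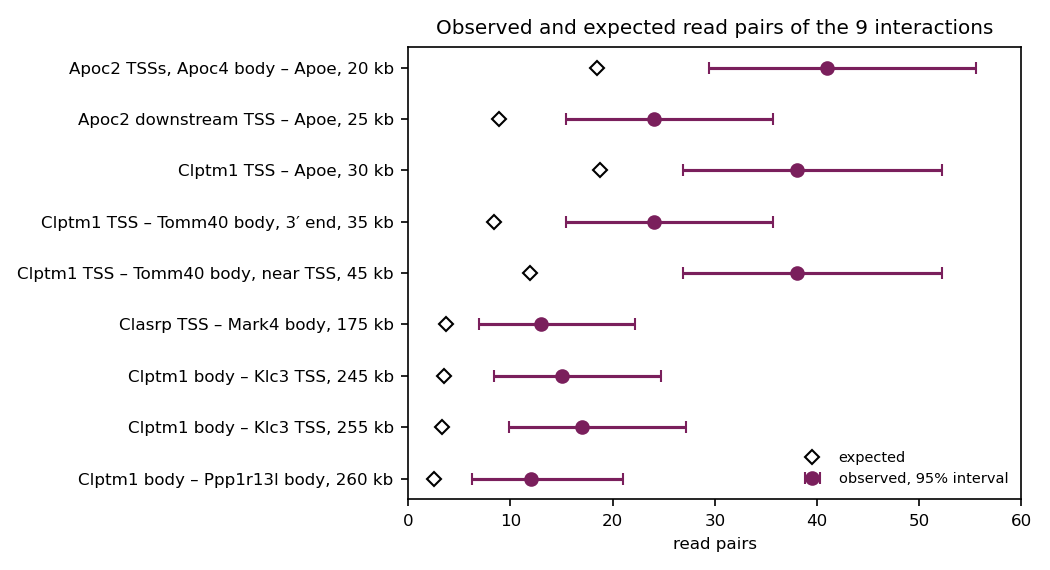
Read pairs of the 9 interactions, ordered from the shortest to the longest span. Purple points are observed read pairs with exact Poisson 95% intervals, and open diamonds the number the caller expected. In every interaction the interval lies above the expected number, which follows largely from the calling, since the list holds no ratio under 2.00. The 3 interactions of the Apoe bin have 24 to 41 read pairs and the 4 beyond 100 kb have 12 to 17.

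Over the 28 bins that the row covers, H3K4me3 and interactions coincided in part. Of these bins, 14 had an interaction of any gene, 6 had a peak in both replicates and 4 had both. The 4 include the bins of Apoe and Clasrp and 2 bins of Relb, while the tall peaks of Clptm1 and Tomm40 lay in bins with none. Apoe had more interactions than 70.9% of all marked genes, and Clptm1 more than 84.6%. The counts cover 8 bins at Clptm1, 5 at Clasrp, 4 at Tomm40 and 1 at Apoe, and a gene over more bins can gather more interactions. The order of the 4 marked genes by interactions was not that by H3K4me3: Apoe, with the lowest mark, had 3, against 2 for Tomm40 and 1 for Clasrp, and with TSS bins alone Apoe and Clptm1 had 3 each. Marked genes had a mean of 2.76 interactions, and 47.5% had at least 1.

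Genes elsewhere with the most similar values were found by the distance of the log2 heights in both replicates among genes with the same number of interactions. For Apoe, of 731 genes with 3 interactions, these were Cd72 (15.6 and 15.7 tags per 10 M), a receptor gene of B cells and some myeloid cells, 6430628N08Rik (12.5 and 13.4) and G430095P16Rik (14.0 and 17.9). For Tomm40 they were Usp36, Smpd4 and Nup214, for Clptm1 Btaf1, Kmt5b and Psma7, and for Clasrp Ubqln1, Eif5a and Lsm14a. The log2 distance was at most 0.09 for these 9 genes and 0.17 to 0.26 for the 3 of Apoe.

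Of 20 other protein-coding genes within 200 kb of the row, 11 were marked, near the 59.4% of all autosomal protein-coding genes. An interaction was found for 16 of the 20, far above the 33.0% of all genes, so this trait of the row is not particular to its 7 genes. Relb, which encodes a subunit of NF-kappaB and lies between Clasrp and Clptm1, was the highest, with 232 and 274 tags per 10 M and 8 interactions, none of them shared with the 7 genes. Bloc1s3 and Trappc6a, which share a peak, had 216 and 224, Mark4 had 199 and 220 with 12 interactions, and Ercc2 had 195 and 186 with none. All of these lay below Clptm1 and Clasrp in both replicates and far above Apoe. Nectin2, which shares a bin with the Tomm40 TSS, had 166 and 154 and no interaction, and Zfp296, which shares a bin with the 3′ end of Clasrp, had 46.0 and 48.5. The neighbours that shared an interaction with the row were Klc3 (39.0 and 61.9), Mark4, Ckm and Gm44805, and the last 2 were unmarked.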

How the data were processed

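H3K4me3 ChIP–seq and PLAC-seq of sorted wild-type microglia were analysed as grouped by the labels; Hi-C data were not used here, and no genotypes were compared. Bowtie2, HOMER and mm10 are named in the submitters' processing notes. The authors deposited 1 peak list per ChIP replicate with whole tag counts, a signal normalized to 10 M mapped tags (called height here) and an input signal scaled to the depth of the ChIP library. They also deposited a fold over input (ratio), a p-value, a focus ratio (fraction) and a peak score. Depth, recovered as tags over height, was 12.8 and 13.4 M tags, with 27845 and 26574 peaks holding 31.8% and 32.7% of the tags. The authors called interactions with MAPS in bins of 5 kb on both PLAC-seq libraries together, with ENCODE pipeline peaks as template, which need not be the deposited peaks. Their list of 26689 interactions gives read pair counts, expected counts, a false discovery rate (a p-value adjusted by the authors, at most 0.01) and cluster sizes. The deposited −log10 p per cluster and the peak score were not used.

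TSSs were those of protein-coding transcripts of GENCODE M21 (basic set), with each symbol used once, and promoter sequences were those of RefSeq (GRCm38.p6). Heights are those of the tallest peak, with the SD of 2 replicates and exact Poisson intervals; 2 genes were called apart where all replicate values of one lay above those of the other. No groups differ in these data, so no test between groups was run. The assignment of peaks and bins was tested on simulated data. Analyses used Python 3.11.15, numpy 2.4.6, pandas 2.3.3, scipy 1.17.1 and pysam 0.24.0. The members and lists were chosen with earlier results of these data known. All 7 genes are named; other genes are named for a shared bin or interaction, as the 5 highest neighbours, as the 3 closest in values, or in the lists as the highest, the unmarked or those with most interactions. Trem2, Vldlr and single cell type markers were named after their values were seen. The microglia list holds 7 genes; a further marker is not reported here. Alternatives were other windows around TSSs, stricter peaks and interactions, TSS bins alone, extended gene bodies, summed peaks and each replicate alone.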

Additional observations from a re-analysis of the deposited data

How the results depend on the processing

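The same 4 genes were marked under all 9 alternatives tried: windows of 500 bp, 2 kb and 5 kb, a peak in either replicate, each replicate alone, a fold over input of at least 10, most of the peak inside the window, and TSSs of all transcripts. The median height of the 4 was 331 tags per 10 M, between 306 and 355 with 1 replicate left out, and 384 when all peaks within 1 kb were summed; summing gave 384 for Tomm40 and 21.1 for Apoe. The number of interactions depended on the threshold. Against 9, there were 14 with gene bodies extended by 5 kb, 5 with at least 20 read pairs, 5 with a ratio of at least 3, 3 with 1 interaction per cluster and 2 with the false discovery rate limited to 0.0001. With TSS bins alone there were 6, with 0 for Tomm40 and Apoc4 and 3 for Clptm1. Apoe kept its 3 with TSS bins alone and with at least 20 read pairs, had 4 with extended bodies, and had 0 under the higher ratio, the lower false discovery rate and 1 per cluster. Apoc1 had 3 only with the extended body, through the Apoe bin. No paired analysis was possible because the libraries hold no groups to compare. Depth limits Apoe most: with 18 and 20 tags, its ratio of replicates could lie between 0.534 and 2.13.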

Other observations

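In the list of ApoE receptors and lipid genes, Mylip, which encodes a ligase that degrades LDL receptors, had 23 interactions at 306 and 273 tags per 10 M, Lrp1 had 12 and Npc2, a lysosomal cholesterol carrier gene, had 10, whereas Nr1h2 and Trem2 had none. Among the other apolipoprotein genes, Apoh had 10 interactions, Apoa5 had 6 and Apof and Apobr had 3 each, and of these 4 only Apobr was marked. Bcl3, an inhibitor of NF-kappaB family gene within 200 kb of the row on the side of Tomm40, had 63.9 and 74.6 tags per 10 M and 8 interactions, none of them with the 7 genes.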
